A study of Homo sapiens with 4 samples.

Results

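The regions described here are the MYOD sites that carried H3K27ac in both arms of an SKP2 knockdown experiment in the human cell line RD, which was derived from a fusion-negative rhabdomyosarcoma (FN-RMS), a tumor of the muscle lineage. They were selected on the peak calls themselves. The MYOD peaks of both arms were merged, and a site was kept where it overlapped by at least 1 bp a peak of each of the 4 lists, which are MYOD and H3K27ac in shSKP2 and in shSCR cells. This gave 1742 sites, or 16.5% of the 10538 MYOD sites of either arm and 46.8% (95% Wilson interval 45.2 to 48.4) of the 3722 sites bound in both arms. Of the other sites bound in both arms, 797 had H3K27ac in shSKP2 alone, 1102 had it in neither arm and 81 had it in shSCR alone.

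In the shSKP2 arm RD cells were infected with a vector for an shRNA against human SKP2, and in the shSCR arm with one for a non-targeting shRNA. Each antibody was sequenced as 1 library per arm, so there were 4 libraries in 4 groups, and differences between arms have no replicate check. No p-value is given for this reason, and the 95% intervals cover counting error over sites of these libraries. H3K27ac covered the promoters of 6 of 10 skeletal muscle markers in shSKP2 and of 4 of 10 in shSCR cells, MYOG, CHRNA1, CDH15 and MYOD1 in both arms, against 1 or 2 of 18 markers in each of the lists for cardiac and smooth muscle, neurons and glia, blood and endothelium, and epithelium and liver. Over all protein-coding genes the share was 51.4% in shSKP2 and 41.5% in shSCR cells, so the muscle markers were near the share of all genes. The lists held 8457 MYOD peaks in shSKP2 and 5814 in shSCR cells, and 38457 H3K27ac peaks in shSKP2 and 25356 in shSCR cells. The smallest recovered background, which stands in for depth, was 1.94 fragments for MYOD in shSKP2 and 1.48 in shSCR, and 1.61 for H3K27ac in shSKP2 and 1.75 in shSCR cells.

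MYOD is a basic helix-loop-helix transcription factor that commits cells to the skeletal muscle lineage. With an E protein as partner it binds E-boxes, hexamers of the form CANNTG, with a preference for CAGCTG, and it can recruit acetyltransferases to enhancers and promoters. H3K27ac is the acetylated histone H3 lysine found at active enhancers and promoters, so a MYOD site with this mark lies in chromatin in use in that cell. SKP2 is the substrate receptor of an SCF ubiquitin ligase that marks CDK inhibitors for degradation, and FN-RMS cells keep MYOD without completing muscle differentiation.

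The sequences under 9 of the 10 strongest sites with a protein-coding TSS within 100 kb are shown, in order, to give the E-boxes that lie under the MYOD summits. The strength of a site is the fold deposited for its peak, the pileup at the summit over the local background, and the lower value of the 2 arms set the order. Windows of 81 bp centred on the shSKP2 summit are printed from the plus strand of hg38, with E-boxes in capitals.
MAMSTR promoter, chr19:48719946-48720026: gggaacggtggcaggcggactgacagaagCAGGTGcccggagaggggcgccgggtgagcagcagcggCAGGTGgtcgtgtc
RTN2 intron 5, chr19:45492836-45492916: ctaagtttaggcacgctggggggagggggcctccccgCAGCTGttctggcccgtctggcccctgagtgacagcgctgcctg
GSTA4 promoter, chr6:52995760-52995840: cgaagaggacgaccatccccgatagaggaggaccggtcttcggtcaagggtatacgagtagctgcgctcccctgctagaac
GATAD2A intron 1, chr19:19462379-19462459: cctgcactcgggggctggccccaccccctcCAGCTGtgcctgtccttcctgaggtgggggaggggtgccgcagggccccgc
near PVRIG, chr7:100237763-100237843: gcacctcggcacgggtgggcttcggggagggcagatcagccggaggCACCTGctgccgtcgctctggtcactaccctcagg
near TSHZ3, chr19:31448341-31448421: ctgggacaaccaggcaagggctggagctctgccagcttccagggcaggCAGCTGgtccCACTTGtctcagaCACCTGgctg
SPOP exon 1, chr17:49677905-49677985: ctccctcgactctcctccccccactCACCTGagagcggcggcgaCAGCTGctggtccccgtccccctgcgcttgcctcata
LMNB2 intron 1, chr19:2446620-2446700: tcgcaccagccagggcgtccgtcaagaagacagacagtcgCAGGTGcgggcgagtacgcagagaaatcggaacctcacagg
near PRR18, chr6:166318390-166318470: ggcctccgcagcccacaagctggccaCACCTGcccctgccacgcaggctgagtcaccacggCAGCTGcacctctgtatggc
The MAMSTR site, in the promoter of a coactivator of MEF2 factors in muscle, was the strongest, with a MYOD fold of 23.9 in shSKP2 and 24.9 in shSCR cells. Its printed window held CAGGTG at 2 places and no CAGCTG. RTN2, a reticulon of the endoplasmic reticulum, had folds of 22.8 in shSKP2 and 21.7 in shSCR cells over a lone CAGCTG in intron 5. PVRIG, an inhibitory receptor of lymphocytes, was the nearest gene, 17.9 kb away, to a site with folds of 21.2 in shSKP2 and 18.5 in shSCR. SPOP, a substrate adaptor of cullin-based ubiquitin ligases, had 20.2 in shSKP2 and 17.7 in shSCR at exon 1, where CACCTG, the reverse strand of CAGGTG, lay beside CAGCTG. LMNB2, a nuclear lamin, had 20.1 in shSKP2 and 17.6 in shSCR over a CAGGTG. GSTA4, a glutathione transferase, had the protein-coding TSS nearest to a site with 20.3 in shSKP2 and 21.0 in shSCR and no E-box in the printed window. Only protein-coding genes were annotated, so this summit may lie in a gene of another type. Within 100 bp of the summit, 6 of the 10 sites had CAGCTG, 7 had CAGGTG and 4 had both. The limit on TSS distance left out 3 sites as strong as these, of which 2 had CAGCTG and none had CAGGTG. At chr9:87160135-87160837 the folds were 20.6 in shSKP2 and 20.8 in shSCR. At chr21:8420029-8420702 they were 23.8 in shSKP2 and 19.8 in shSCR, with neither hexamer. The remaining site had 18.2 in shSKP2 and 17.9 in shSCR. The part of repeats or copy number at these sites was not tested.

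Sites at muscle genes are shown next, because they carry the lineage program that MYOD is known for.
CHRNB1 promoter, chr17:7444996-7445076: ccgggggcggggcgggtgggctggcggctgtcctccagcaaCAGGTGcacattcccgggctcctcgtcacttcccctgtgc
JSRP1 promoter, chr19:2256424-2256504: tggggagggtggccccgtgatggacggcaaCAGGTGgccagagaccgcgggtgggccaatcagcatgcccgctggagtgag
CACNA1S intron 2, chr1:201096076-201096156: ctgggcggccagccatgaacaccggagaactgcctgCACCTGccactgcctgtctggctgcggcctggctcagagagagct
TPM2 promoter, chr9:35690220-35690300: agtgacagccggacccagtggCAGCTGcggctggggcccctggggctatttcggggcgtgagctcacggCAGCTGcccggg
SMYD1 promoter, chr2:88067386-88067466: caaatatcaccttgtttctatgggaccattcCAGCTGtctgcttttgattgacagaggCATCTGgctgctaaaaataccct
KLHL41 intron 1, chr2:169514082-169514162: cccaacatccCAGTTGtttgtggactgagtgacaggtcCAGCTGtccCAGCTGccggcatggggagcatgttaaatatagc
TEAD4 intron 10, chr12:3033643-3033723: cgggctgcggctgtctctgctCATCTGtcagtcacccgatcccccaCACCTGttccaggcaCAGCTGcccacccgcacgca
PAX7 intron 5, chr1:18693720-18693800: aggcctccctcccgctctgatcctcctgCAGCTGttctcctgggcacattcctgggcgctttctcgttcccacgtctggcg
CHRNB1, a subunit of the muscle acetylcholine receptor, CACNA1S, the pore of the muscle L-type calcium channel, and JSRP1, a protein of excitation-contraction coupling, each had a CAGGTG or CACCTG near the summit and no CAGCTG within 100 bp. TPM2, a tropomyosin, SMYD1, a methyltransferase needed for sarcomere assembly, and KLHL41, a thin filament protein, had CAGCTG at 3, 2 and 2 places within 100 bp, in the order of these names.

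The sites lay closer to promoters than the other MYOD sites bound in both arms. The summit was within 2 kb of the TSS of a protein-coding gene at 467 sites (26.8%), against 16.1% of the sites with H3K27ac in shSKP2 alone and 12.3% of those with none. The difference was 10.7 percentage points against the class of shSKP2 alone (Newcombe 95% interval 7.36 to 14.0) and 14.5 against the class with none (11.6 to 17.3). A further 41.9% lay in gene bodies and 31.3% between genes, and the median distance to a TSS was 20.9 kb. When the H3K27ac peaks of both arms had to hold the MYOD summit, the promoter excess was 30.8 points. That difference is from sites whose summit lay in an H3K27ac peak of neither arm, some of which had H3K27ac beside the summit.

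CAGCTG did not set these sites apart, whereas CAGGTG was less frequent in them. Within 100 bp of the summit CAGCTG was found at 69.9% of the sites, at 70.5% of those with H3K27ac in shSKP2 alone and at 71.1% of those with none. The difference from the sites with none was -1.28 points (-4.68 to 2.18), against a share of 9.68% in windows 2 kb away from the acetylated sites. CAGGTG, which MYOD also binds and which repressors of the SNAI and ZEB families recognize, was found at 39.2% of the sites. Its share was 49.4% where H3K27ac was called in shSKP2 alone, a difference of -10.2 points (-14.4 to -6.07), and 52.2% where it was called in neither arm, a difference of -13.0 points (-16.7 to -9.22). Windows 2 kb away had CAGGTG at 22.1%.

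The lower share of CAGGTG was seen in every subset that was compared with the unacetylated sites. It was -10.9 points (-20.2 to -1.46) at promoters and -13.4 points (-17.5 to -9.25) elsewhere. In 3 equal groups of sites bound in both arms, ordered by shSCR MYOD fold, it was -18.7, -9.06 and -11.5 points, and in 3 equal groups ordered by GC content it was -9.45, -16.6 and -13.6 points. Each of these intervals left out 0. Against the sites with H3K27ac in shSKP2 alone the CAGGTG difference was negative in each of the same subsets, but the interval included 0 at promoters (-6.27, -15.9 to 3.26), in the middle group by MYOD fold (-4.36, -11.4 to 2.70) and in the lowest group by GC content (-5.19, -12.3 to 1.85). Sites with CAGCTG and no CAGGTG made up 51.03% of the sites acetylated in both arms, against 42.3% of those without H3K27ac, and sites with both hexamers 18.8% against 28.9%. CAGCTG at 2 or more places was also less frequent, at 21.5% against 28.0% (difference -6.51 points), though not against the class with H3K27ac in shSKP2 alone (-1.94, -5.53 to 1.51). The CAGCTG result depended on the overlap asked for. With H3K27ac peaks of both arms holding the MYOD summit, its difference was -13.7 points (-18.2 to -9.26), and with 50% of the MYOD site covered it was -6.87 points (-10.6 to -3.19). The comparison sites changed as well, to those that met the rule in neither arm. They include sites with H3K27ac beside the summit or over less of the site, so these differences are not from unacetylated sites alone.

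**Figure D1:**
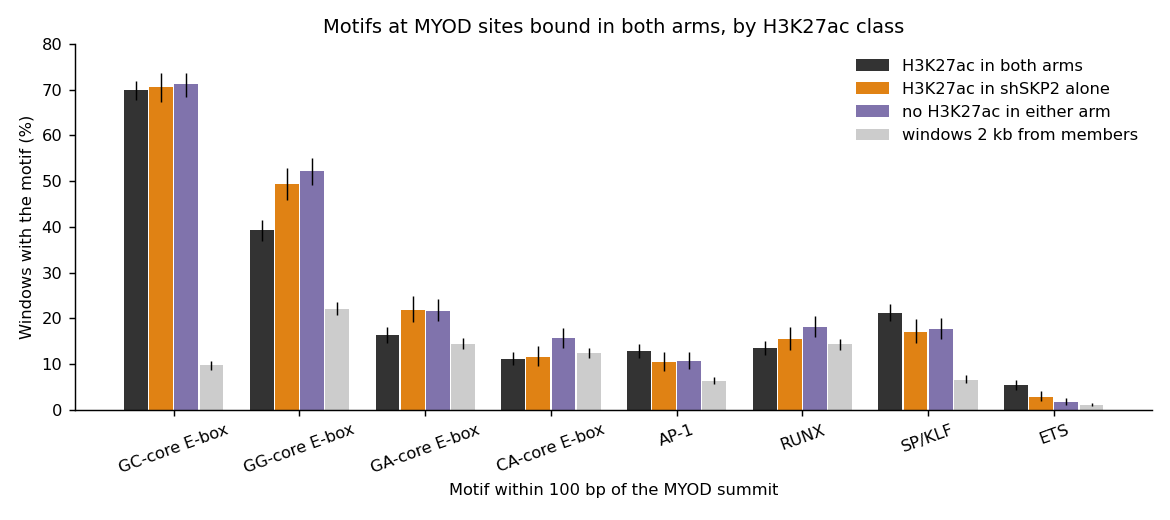
Share of windows, 100 bp to each side of the MYOD summit, with each motif (y axis, percent) in sites with H3K27ac in both arms, in shSKP2 alone or in neither arm, and in windows 2 kb from the first class; bars are 95% Wilson intervals. GC-core is CAGCTG, GG-core CAGGTG, GA-core CAGATG and CA-core CACATG, each counted on both strands. The GC-core E-box stands at 69.9 to 71.1% in the 3 classes, and the GG-core E-box at 39.2% in the first against 52.2% in the last.

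Other motifs followed the promoter share in part. CATCTG, the reverse strand of CAGATG, was at 16.4% of the sites and at 21.7% of those without H3K27ac (-5.33 points, -8.35 to -2.37), and CACATG at 11.1% against 15.6% (-4.47, -7.13 to -1.92). The RUNX core TGTGGT was at 13.4% against 18.1% (-4.62, -7.45 to -1.89). The ETS motif CCGGAAG was at 5.34% against 1.63% (3.71, 2.37 to 5.01), with 12.4% against 2.21% at promoters and 2.75% against 1.55% elsewhere, where the interval included 0. Against sites with H3K27ac in shSKP2 alone the promoter shares were 12.4% and 10.2% (2.26, -4.72 to 7.55). For CACATG and TGTGGT the intervals of the difference from that class also included 0. The SP/KLF motif GGGCGG was at 21.2% against 17.6%, while it was lower at the acetylated sites within promoters (47.5% against 55.1%) and outside them (11.6% against 12.3%), with intervals that included 0. The AP-1 motif TGANTCA was at 12.7% of the sites, against 10.4% of those with H3K27ac in shSKP2 alone (2.33, -0.419 to 4.87) and 10.6% of those with none (2.13, -0.330 to 4.48), and both intervals included 0, as they did at promoters. Outside promoters it was at 15.2%, against 11.8% of those with H3K27ac in shSKP2 alone (3.41, 0.152 to 6.45) and 11.7% of those with none (3.52, 0.648 to 6.32). The intervals of the MEF2 and TEAD (GGAATG) differences included 0.

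CAGCTG lay close to the summit and in a preferred flank. Its centre was a median of 9.5 bp from the shSKP2 summit at the 1217 sites that had it, and within 25 bp at 77.7%. Read on both strands, the base before CAGCTG was G in 44.1%, A in 33.7%, C in 15.7% and T in 6.57% of cases, against 28.4% G, 22.6% A, 31.0% C and 18.1% T for the CAGCTG found 2 kb from sites bound in both arms. The most frequent 8-base forms nearest the summit were ACAGCTGC, at 29.3% of the 1217 sites, and GCAGCTGC, at 19.97%. Among the 525 sites without CAGCTG, 355 had CAGGTG, and 59 sites had no E-box at all in the window. The sites without an E-box were at promoters in 35 of 59 cases (59.3%), against 25.7% of the sites with one, and had a median MYOD fold of 4.58 in shSKP2 and 4.87 in shSCR, against 7.16 in shSKP2 and 6.85 in shSCR.

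**Figure D2:**
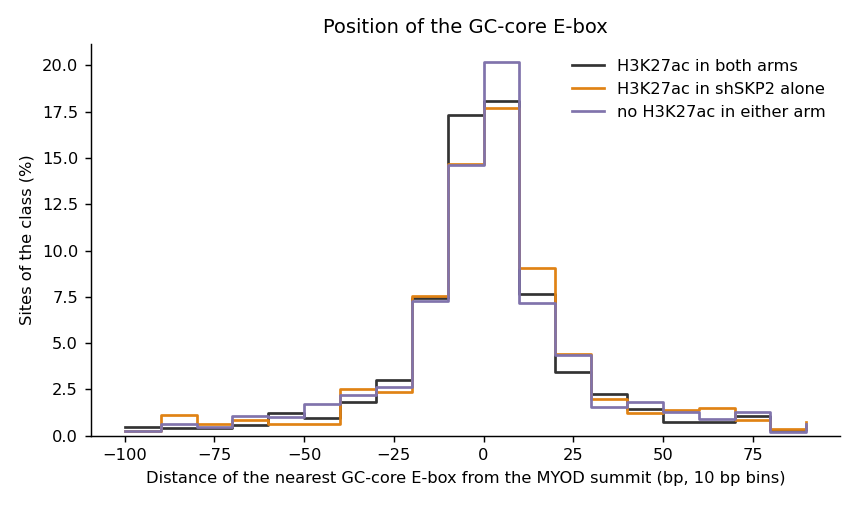
Distance of the CAGCTG (GC-core E-box) nearest to the shSKP2 MYOD summit (x axis, bp, in 10 bp bins) as a share of all sites of each class (y axis, percent). The 3 classes peak at the summit, with median distances of 9.5 bp for sites with H3K27ac in both arms, 11.5 bp for H3K27ac in shSKP2 alone and 10.5 bp for no H3K27ac.

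MYOD fold was similar in the 2 arms at most of the sites. The median was 7.11 in shSKP2 and 6.74 in shSCR cells, the median ratio of shSKP2 over shSCR was 1.035 (quartiles 0.887 and 1.20), and the MYOD summits of the arms lay a median of 14 bp apart. The fold was at least 1.5 times higher in shSKP2 at 103 sites (5.91%) and at least 1.5 times lower at 49 (2.81%). Over the 3722 sites bound in both arms these shares were 6.82% and 3.33%, and at the 1980 of them that are not acetylated in both arms 7.63% and 3.79%, both above the shares of the acetylated sites. These values come from the libraries that the selection used and are a description. With the pileup set over the background without the pseudocount of 1 in the deposited fold, the median ratio was 1.01, with 93 sites higher and 74 lower.

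The 5 sites with the largest ratio were all at promoters. POLB, a DNA repair polymerase, had a MYOD fold of 9.25 in shSKP2 and 3.71 in shSCR. JMY, an actin nucleator, had 8.08 in shSKP2 and 3.71 in shSCR, and the promoter of RAB5B, an endosomal GTPase next to CDK2, 8.73 in shSKP2 and 4.15 in shSCR. Among sites with a TSS within 100 kb, the lowest ratio was at a site 5.17 kb from DOCK10, a guanine nucleotide exchange factor, with 5.18 in shSKP2 and 9.95 in shSCR. At a site 3.58 kb from BGN, the proteoglycan biglycan, the fold was 4.76 in shSKP2 and 8.88 in shSCR with 4 CAGCTG hexamers in its window. None of the 5 such sites with the lowest ratio was at a promoter, and H3K27ac fold was higher in shSKP2 at each of these 5. The site with the lowest ratio of all, at chr2:234156469-234156885, had no TSS within 100 kb, with MYOD folds of 3.94 in shSKP2 and 7.59 in shSCR and H3K27ac folds of 2.73 in shSKP2 and 3.34 in shSCR. Sites at chr13:79782777-79783172 and chr9:90020208-90020604, also without such a TSS, had MYOD ratios of 0.544 and 0.565. Their H3K27ac folds were also lower in shSKP2, at 3.86 against 4.99 in shSCR and 4.20 against 4.25. Of the 103 sites with higher MYOD fold in shSKP2, 35.9% were at promoters, against 12.2% of the 49 with lower fold (difference 23.7 points, 8.91 to 35.3). At the other sites bound in both arms the same shares were 15.2% of 151 and 5.33% of 75 (9.90 points, 0.882 to 17.2). The median shSCR MYOD fold was 4.69 at the 103 sites and 7.51 at the 49, a gap that the choice by ratio helps to set.

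H3K27ac was higher in shSKP2 at most of the sites, as it was at most H3K27ac sites called in both arms. The median H3K27ac fold was 5.73 in shSKP2 and 4.56 in shSCR cells, with a median ratio of 1.22. It was at least 1.5 times higher in shSKP2 at 324 sites (18.6%) and lower at 4 (0.230%), against 14.7% and 0.601% of the 19644 H3K27ac sites called in both arms. Counted in the same unit as that background, the merged H3K27ac sites that held 1 of these MYOD sites numbered 1863, of which 16.1% were higher. H3K27ac sites without MYOD had a median ratio of 1.16 and 14.2% were higher. All H3K27ac sites called in both arms were also split into 3 groups by shSCR H3K27ac fold. From the lowest group up, 27.7%, 21.0% and 10.7% of the MYOD sites were higher, against 18.2%, 16.3% and 9.5% of all H3K27ac sites. These shares count MYOD sites, not merged H3K27ac sites. Spike-in scaling of the peak calls is not stated in the sources used here, so these folds are relative to each library's own background.

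H3K27ac peaks were also longer in shSKP2. The peaks that touched a site summed to a median of 1035 bp in shSKP2 and 568.5 bp in shSCR cells, a median ratio of 1.55. They were at least 1.5 times longer in shSKP2 at 921 sites (52.9%) and shorter at 44 (2.53%), against 46.2% and 2.62% of all H3K27ac sites called in both arms. The merged H3K27ac sites that held 1 of the MYOD sites were longer in 43.2%, which is below that background, so the excess depended on how length was counted. The number of peaks per site was 1 in each arm at 1410 sites (80.9%).

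**Figure D3:**
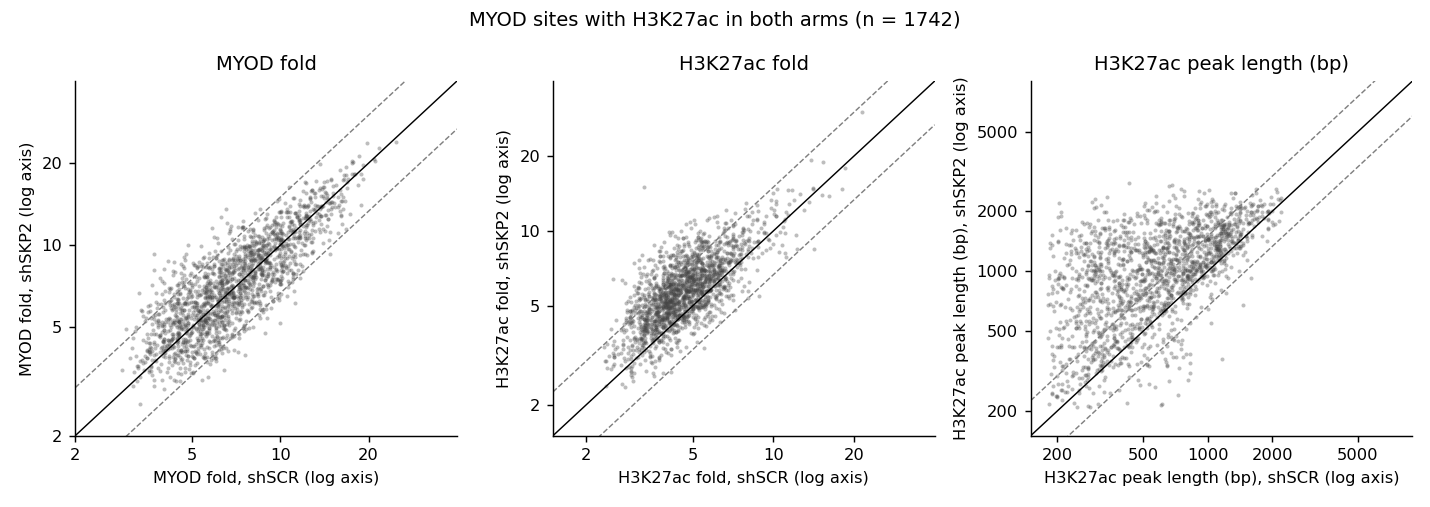
MYOD fold, H3K27ac fold and summed H3K27ac peak length (bp) of the 1742 sites in shSKP2 (y axes) and shSCR cells (x axes), all on log axes, 1 point per site; the solid line marks equal values and the dashed lines a ratio of 1.5 in each direction. MYOD points lie around the line (median ratio 1.035), and most H3K27ac points lie above it (median ratio 1.22 for fold and 1.55 for length).

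The largest gain in length was near MEF2D, which encodes a muscle transcription factor that cooperates with MYOD. The H3K27ac peak at its site, 4.28 kb from the TSS, was 2768 bp in shSKP2 and 432 bp in shSCR cells, while the MYOD fold was 4.70 in shSKP2 and 6.86 in shSCR. PLAU, the urokinase activator, had 2688 bp in shSKP2 and 665 bp in shSCR, and TIMP2, an inhibitor of metalloproteinases, 2224 bp in shSKP2 and 290 bp in shSCR. At NCBP1, a cap-binding protein, the length was 2158 bp in shSKP2 and 320 bp in shSCR, and the H3K27ac fold 6.40 in shSKP2 and 2.52 in shSCR. Among the 10 sites with the largest gain, 9 had CAGCTG and 1 had CAGGTG, and MYOD fold was higher in shSKP2 at 5. The largest loss was at the promoter of STN1, a telomere maintenance protein, with 363 bp in shSKP2 and 1172 bp in shSCR. CDON, a cell-surface receptor that promotes myogenic differentiation, followed with 681 bp in shSKP2 and 1456 bp in shSCR at a site 61.5 kb from its TSS.

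The mark flanked the MYOD summit. H3K27ac peaks covered the summit at 58.2% of the sites in shSKP2 and at 33.6% in shSCR cells, and positions 250 bp away at 78.6% in shSKP2 and 63.0% in shSCR. By 1000 bp the cover was 21.7% in shSKP2 and 11.5% in shSCR. The nearest H3K27ac summit lay a median of 233 bp from the MYOD summit in shSKP2 and 231 bp in shSCR, and within 73 bp of it at 7.41% of the sites in shSKP2 and 8.67% in shSCR. At 469 sites (26.9%) the summit was inside a peak in shSKP2 and not in shSCR, and at 41 (2.35%) the reverse. The whole MYOD site lay inside H3K27ac peaks at 39.95% in shSKP2 and 13.4% in shSCR cells. The selection asked for an overlap by H3K27ac in both arms, so the shape is a description.

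**Figure D4:**
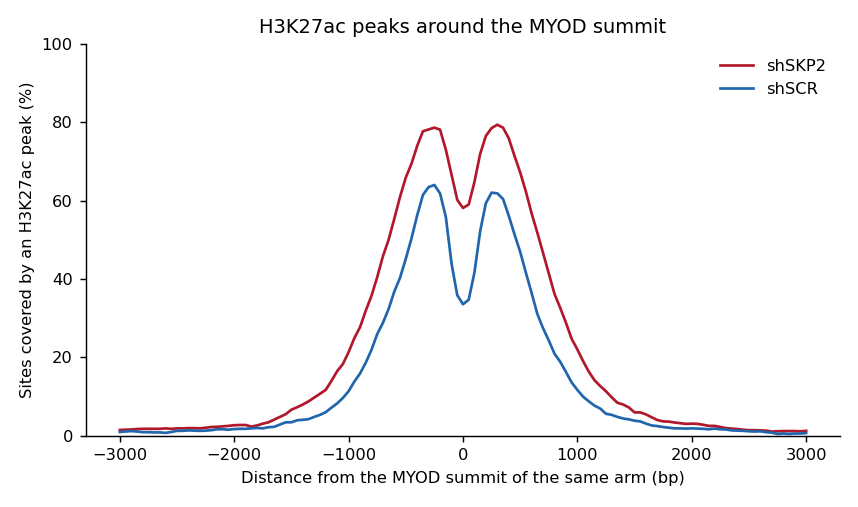
Share of the 1742 sites covered by an H3K27ac peak of the same arm (y axis, percent) at each distance from the MYOD summit of that arm (x axis, bp), for shSKP2 (red) and shSCR (blue). Cover dips to 58.2% in shSKP2 and 33.6% in shSCR at the summit and is 78.6% and 63.0% at 250 bp.

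H3K27ac fold showed little rank correlation with MYOD fold from site to site. Over the 1742 sites the rank correlation of MYOD fold with H3K27ac fold was -0.0056 in shSKP2 and -0.053 in shSCR, and that of the ratios 0.055, while MYOD fold itself correlated at 0.807 and H3K27ac fold at 0.683 between arms. The share with longer H3K27ac had an interval of 60.5 to 77.9% where MYOD fold was at least 1.5 times higher. It was 31.9 to 58.7% where MYOD fold was at least 1.5 times lower. These intervals cover counting error over sites of 1 library per arm. The choice by ratio favors low shSCR MYOD folds at the former sites. Their shSCR H3K27ac was also shorter, at a median of 410 bp against 531 bp. The part of this choice in the shares was not tested. For H3K27ac fold the intervals overlapped. Where MYOD fold was at least 1.5 times higher in shSKP2, H3K27ac fold was also higher by that measure at 28.2% of the 103 sites (20.4 to 37.5; median ratio 1.31) and H3K27ac was longer at 69.9%. Where MYOD fold was lower, the shares were 16.3% of 49 sites (8.51 to 29.0; median ratio 1.16) and 44.9%, against 18.6% and 52.9% over the 1742 sites. The highest H3K27ac fold, by the lower arm, was 18.4 kb from DGCR6L, at 30.1 in shSKP2 and 21.5 in shSCR. DGCR6L has a near-identical copy, DGCR6, so reads of the region could come from more than a single locus. The site at chr21:8420029-8420702, with no TSS within 100 kb, had H3K27ac folds of 17.8 in shSKP2 and 18.5 in shSCR. The part of repeats or copy number there was not tested. IPO13, a nuclear import receptor, had 18.9 in shSKP2 and 15.3 in shSCR at its promoter, and UFSP2, a protease of the UFM1 modifier, 14.7 in shSKP2 and 14.1 in shSCR. Of the 10 sites with the highest H3K27ac fold and a TSS within 100 kb, 6 were at promoters and 3, at IPO13, UFSP2 and 40.8 kb from ZNF875, had no E-box. By contrast MAMSTR, the strongest MYOD site, had an H3K27ac fold of 4.60 in shSKP2 and 4.44 in shSCR.

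Genes of the neuromuscular junction, of cell fusion and of calcium handling held many of the sites. Of 36 genes on this list 17 (47.2%, 32.0 to 63.0) had a site in the gene body or within 10 kb, against 1739 of 20007 protein-coding genes (8.69%). MYOD sites bound in both arms without regard to H3K27ac were at 22 of the 36 genes (61.1%), against 15.7% of all genes. The list was chosen with earlier results of these data known, and its genes have a median length of 39.3 kb, against 27.5 kb over all genes. The acetylcholine receptor was represented by CHRNA1, CHRNB1, CHRND and its fetal subunit CHRNG, with a single site between CHRND and CHRNG counted for both. MUSK, the kinase that organizes receptor clusters, had a MYOD fold of 7.87 in shSKP2 and 5.69 in shSCR at its promoter. The triad proteins RYR1, STAC3, JPH1 and JPH2 and the calcium pump ATP2A1 also had sites, as did CDH15, a cadherin of myoblasts, and MYMX, a micropeptide that drives myoblast fusion.

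The 18 sites at these genes had MYOD folds of similar size in the arms, with a median ratio of 1.01 and none past 1.5-fold. The median ratio of H3K27ac fold was 1.26, with 4 sites at least 1.5 times higher and none lower, and H3K27ac was at least 1.5 times longer at 12 and shorter at none. Over the 1742 sites the median ratio was 1.22, with 18.6% higher in fold and 52.9% longer, so the fold at these genes was close to that of the acetylated sites at large. The site upstream of CHRND, 274 bp from the TSS, had a MYOD fold of 13.9 in shSKP2 and 14.0 in shSCR and an H3K27ac length of 1756 bp in shSKP2 and 276 bp in shSCR cells. RYR1, the calcium release channel, had MYOD folds of 12.0 in shSKP2 and 13.8 in shSCR and H3K27ac over 1994 bp in shSKP2 and 648 bp in shSCR. At an intron 2 site of JPH2, which tethers the sarcoplasmic reticulum to the surface membrane, the H3K27ac fold was 6.28 in shSKP2 and 3.34 in shSCR. CHRNA1 ran the other way in fold, at 3.58 in shSKP2 and 5.18 in shSCR, and MYMX in length, at 468 bp in shSKP2 and 675 bp in shSCR.

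**Figure D5:**
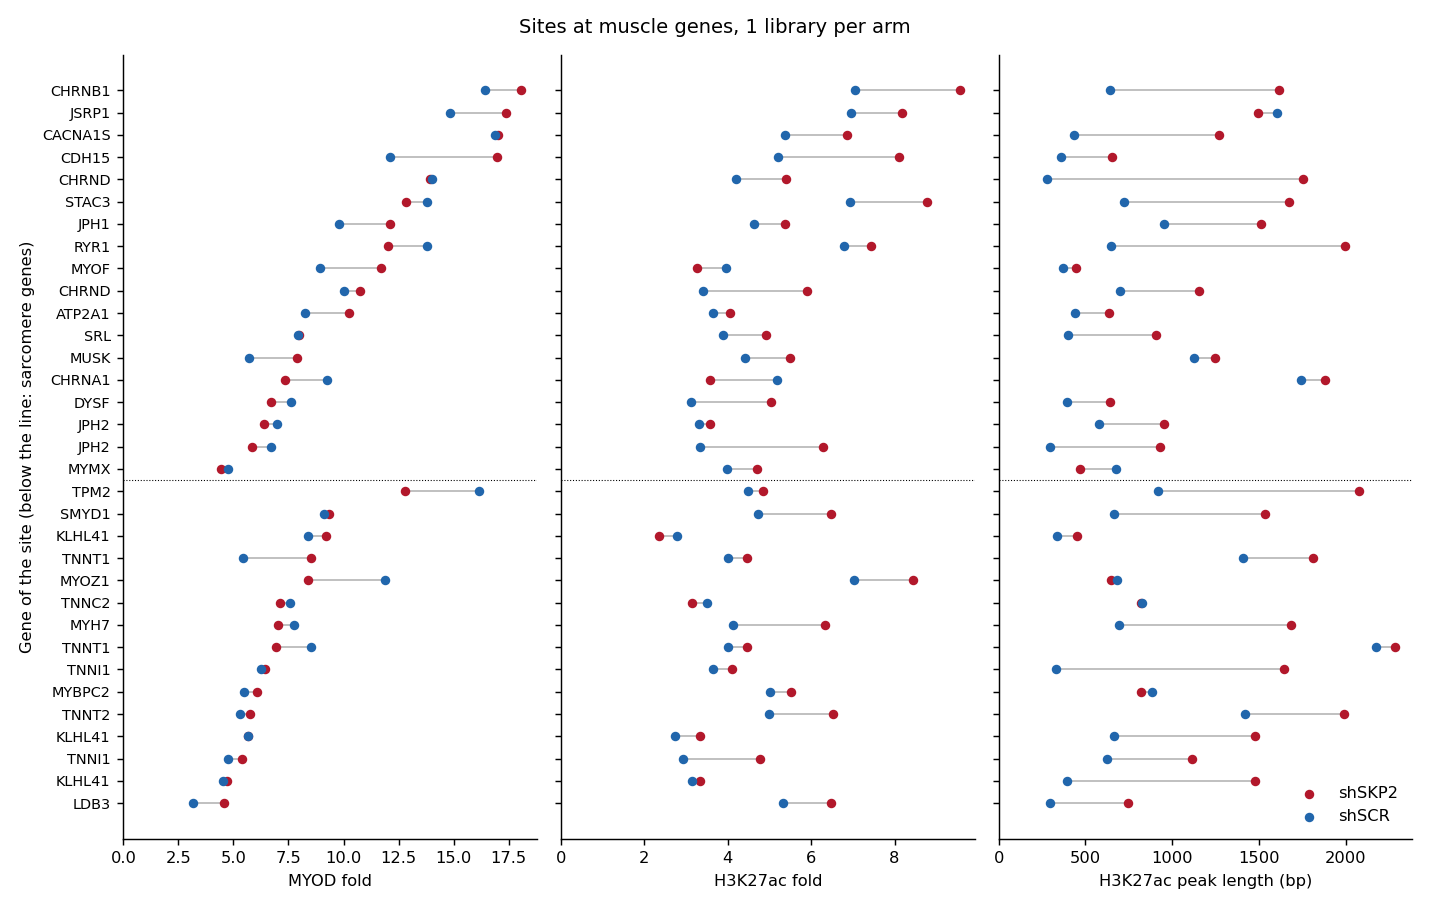
MYOD fold, H3K27ac fold and summed H3K27ac peak length (bp) at each site in the domain of a gene for fusion, neuromuscular junction and calcium handling (above the dotted line) and of a sarcomere gene (below it), with shSKP2 in red and shSCR in blue, 1 library each. Genes with several sites appear on several lines, ordered by shSKP2 MYOD fold. Most H3K27ac lengths are greater in shSKP2, as at CHRND (1756 bp in shSKP2 and 276 bp in shSCR), with exceptions such as MYMX (468 and 675 bp).

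Sarcomere genes held 15 sites at 11 of 46 genes (23.9%), against 8.69% of all protein-coding genes. Without regard to H3K27ac, 18 of the 46 (39.1%) had a MYOD site bound in both arms, against 15.7% of all genes. The site in the TPM2 promoter had MYOD folds of 12.8 in shSKP2 and 16.2 in shSCR, with H3K27ac over 2078 bp in shSKP2 and 919 bp in shSCR. SMYD1 had 9.33 in shSKP2 and 9.12 in shSCR, with H3K27ac over 1534 bp in shSKP2 and 665 bp in shSCR. KLHL41 carried 3 sites within 6.46 kb, and TNNI1 and TNNT1, slow-fiber troponin subunits, carried 2 each. Of the TNNI1 sites, the site in intron 1 of LAD1 counted only because it lay within 10 kb of the TNNI1 gene. It was 2.02 kb from the nearest TSS, which was not that of TNNI1. H3K27ac there covered 1647 bp in shSKP2 and 333 bp in shSCR. H3K27ac was at least 1.5 times longer at 8 of the 15 sites, about the 52.9% of the acetylated sites at large, and at MYBPC2, MYOZ1 and TNNC2 the lengths were within 60 bp of each other between arms.

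Myogenic regulators held 12 sites at 9 of 28 genes (32.1%), against 8.69% of all protein-coding genes. A MYOD site bound in both arms, with or without H3K27ac, was at 16 of the 28 (57.1%), against 15.7% of all genes. The 9 genes included the cofactors MEF2A, MEF2D and MAMSTR, the lineage factors PAX3 and PAX7 of muscle progenitors, and TEAD4, EYA4, SOX8 and RUNX1. The site in TEAD4 intron 10 had MYOD folds of 18.02 in shSKP2 and 16.8 in shSCR and H3K27ac over 2185 bp in shSKP2 and 1625 bp in shSCR. PAX3 intron 7 had similar MYOD folds, 7.27 in shSKP2 and 7.38 in shSCR, with H3K27ac over 1271 bp in shSKP2 and 232 bp in shSCR. PAX7 intron 5 ran the other way, with 648 bp in shSKP2 and 1002 bp in shSCR and MYOD folds of 11.4 in shSKP2 and 12.8 in shSCR. A site within 10 kb of the MEF2A gene, in the body of LYSMD4, had H3K27ac folds of 3.37 in shSKP2 and 5.51 in shSCR, the lone site of the list with H3K27ac at least 1.5 times lower.

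Several loci of interest to the study held none of the sites. MYOG, the myogenic factor of terminal differentiation, and MYBPH had 1 MYOD site bound in both arms each, and neither had H3K27ac at it in either arm. The sites of MYL1 and CDKN1A, a CDK inhibitor gene, had H3K27ac in shSKP2 alone, and the site of MYOD1 had it in shSCR alone. These classes ask only whether an H3K27ac peak overlapped the MYOD site. H3K27ac covered the promoters of MYOG and MYOD1 in both arms. From signal profiles the study reports markedly higher H3K27ac after SKP2 depletion at CDKN1A, MYL1, MYOG and MYBPH. It also reports a marked H3K27ac increase over MYOD-bound sites as a whole, with MYOD binding slightly enhanced. Its methods scale the ChIP-seq samples by Drosophila spike-in reads. Peak overlap and the folds used here are other measures than that signal. No MYOD site bound in both arms lay in the domains of SKP2, CDKN1C or MYH2. Peaks of a single arm were not counted here. The study describes MYOD and H3K27ac at an intronic SKP2 enhancer in RD cells, from earlier ChIP-seq data.

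The other lists are given against the 8.69% of all protein-coding genes. The dystrophin complex and muscle membrane had 4 of 25 (16%). CDK inhibitors and pocket proteins had 2 of 11 genes (18.2%), CDKN2C and RBL1. The RBL1 promoter had MYOD folds of 9.01 in shSKP2 and 7.58 in shSCR and H3K27ac folds of 9.03 in shSKP2 and 6.32 in shSCR, with no E-box near the summit. Cell cycle genes had 5 of 38 (13.2%), with the strongest of 3 sites at CCND3, a D-type cyclin, at MYOD folds of 14.0 in shSKP2 and 11.9 in shSCR and H3K27ac over 1677 bp in shSKP2 and 349 bp in shSCR. Inhibitors of differentiation had 6 of 31 (19.4%), including NOTCH1 and HEYL, a target of Notch signaling, whose site had MYOD folds of 11.4 in shSKP2 and 13.6 in shSCR and 3 CAGCTG. RAS-ERK and AP-1 response genes had 5 of 34 (14.7%) and TGF-beta, activin and matrix genes 3 of 33 (9.09%). SCF ligase and neddylation genes had 0 of 19, housekeeping genes 2 of 24, and the markers of cardiac and smooth muscle, neurons, blood, and epithelium 1, 1, 3 and 0 of 18 each, 3 being 16.7%. The Wilson interval of the inhibitors of differentiation was 9.19 to 36.3%, and those of the other lists in this paragraph included 8.69%. These intervals are no test of a list, since several lists were counted and all were chosen with earlier results known. Without regard to H3K27ac, MYOD sites bound in both arms were at 11 of the 31 inhibitors of differentiation (35.5%), against 15.7% of all genes.

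Most sites stood alone, since 141 of the 1742 (8.09%) had another within 12.5 kb. MAD1L1, a spindle checkpoint gene, held 5 sites over its domain, with MYOD folds of 4.01 to 13.1, and an overlapping gene, ENSG00000286192, held the same 5. HDAC4, a class II deacetylase that represses MEF2, and CPA5, a carboxypeptidase, had 4 each, as did CYRIB, KCNN3 and NRG1. A group of 5 sites lay at chr4:49108388-49121217 with no protein-coding TSS within 100 kb. Background was high there. Its sites at chr4:49120070-49120356 and chr4:49120852-49121217 had recovered MYOD backgrounds of 15.04 and 14.85 fragments in shSKP2. In shSCR these were 6.71 and 6.64, against medians over all MYOD peaks of 3.005 in shSKP2 and 2.77 in shSCR.

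At the edge of the rule, the least overlap was 1 bp, at NES, CLIP1 and CD276 for H3K27ac of shSKP2 and at BCAR3, OSBPL10 and MIOS for that of shSCR. Just outside it, sites near GSN and RUNX1 lay 0 and 1 bp from an shSCR H3K27ac peak, and a site near INKA2 lay 4 bp from an shSKP2 peak. Of the 797 sites with H3K27ac in shSKP2 alone, 173 were within 100 bp of an shSCR peak, as 19 of the 81 with it in shSCR alone were of an shSKP2 peak. The lowest -log10 p of an H3K27ac peak inside the rule was 4.86 in shSKP2, at STX16, and 4.01 in shSCR, at STYXL2.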

How the data were processed

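MYOD and H3K27ac were profiled by ChIP-seq in RD cells. Per the submitters' processing notes, BWA 0.7.17, MACS3 and deepTools were used, and the study's methods describe alignment to GRCh38 and peak calling against input with removal of excluded regions. Peaks were called per library. The study gives a p limit stricter than the smallest -log10 p in the lists, 4.00 to 4.01, and 2.41 to 4.13% of the peaks lie below 5. Each peak has a fold, a ratio of summit pileup to local background that the authors deposited, with their -log10 p and -log10 q. The deposited score is 10 times the -log10 p. Groups came from sample titles. Other contigs were left out, which removed 1 peak from either H3K27ac list. For each site and arm the highest fold and the summed length of overlapping peaks were taken, and ratios of 1.5 or more were counted. Pileup and background were recovered from the fold and -log10 p, with a whole-number pileup for 100% of the peaks (tolerance 0.001). The smallest background stood in for depth, since the lists hold no read totals. Motifs were searched on both strands within 100 bp of the shSKP2 summit, and positions taken from GENCODE release 44. Scripts ran in Python 3.11.15 with NumPy 2.4.6, SciPy 1.17.1 and pysam 0.24.0 and were tested on simulated data.

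The sites and the 15 gene lists (397 entries) were chosen with earlier results of these data known. Named genes followed a rule: the 10 sites of highest MYOD fold and of highest H3K27ac fold, by the lower arm; the 10 largest gains and 5 largest losses of H3K27ac length; the 5 largest and smallest MYOD ratios; the 3 strongest sites per list; the study's loci; and the 5 genes with most sites. Other sites at muscle genes were named after their values were seen. Intervals are Wilson or Newcombe at 95%. The sequence of 1 of the 10 strongest sites is not reported here.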

Additional observations from a re-analysis of the deposited data

How the results depend on the processing

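Each group had 1 library, so no replicate could be left out. No paired analysis was possible because the groups compared share fewer than 2 replicate numbers. Among 72 alternative values 50 stayed within the interval of the reported value, or within 1.5 times it for counts. The CAGCTG difference, whose interval included 0, changed sign, with intervals that still included 0, outside promoters (1.43 points), with a window of 50 bp (0.418) and at -log10 p of at least 10 (0.00295). The values that moved further were as follows. With peaks at -log10 p of at least 10 there were 862 sites, H3K27ac was longer at 49.9% (background 44.1%) and its fold higher at 11.9% (9.48%), MYOD fold was higher at 2.44% (3.83%), and the promoter difference was 9.91 points. With H3K27ac peaks holding the MYOD summit there were 544 sites, of which 44.1% were longer, below the background of 46.2%, and 16.7% higher in fold (14.7%), the CAGCTG difference was -13.7 and the promoter difference 30.8 points. With 50% of the MYOD site covered there were 876 sites, 46.0% were longer (46.2%), and these differences were -6.87 and 23.4 points. Under both overlap rules the comparison sites were those that met the rule in neither arm, which include sites with H3K27ac elsewhere in them. With calls past 2-fold, H3K27ac was longer at 33.9% (25.1%) and its fold higher at 2.41% (1.40%), and MYOD fold was higher at 0.459% (0.564%). Bases covered within 1 kb of the summit were more at 44.8%. With 50 kb around gene bodies 14 myogenic regulators had a site, among 3393 of all genes. Chosen after seeing the data, merged H3K27ac sites that hold a MYOD site were longer in 43.2% (46.2%) and higher in fold in 16.1% (14.7%), so the excess in length over the background turned in these 3 settings. The alternatives for the CAGGTG difference, and leaving out sites of high MYOD background, were also chosen after seeing the data and moved no value out of its interval. The cause of these movements was not tested. Read depth is known only through the smallest background, and its part in the lists was not tested.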

Other observations

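Some of the sites lay where background was high. The recovered MYOD background was above 10 fragments in at least 1 arm at 16 sites, and 9 of these had no protein-coding TSS within 100 kb. The deepest was at chr16:46387783-46388078, with a pileup of 1142 fragments over a background of 199.3 in shSKP2 and 668 over 118.7 in shSCR cells. A site 50.4 kb from USP14, near the end of chromosome 18, had a pileup of 230 fragments in shSKP2 and 115 in shSCR. The part of repeats or copy number in these values was not tested.

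The AP-1 motif was unevenly spread over the sites whose MYOD fold differed between arms, a comparison chosen after its values were seen. It was at 6 of the 103 sites with a fold at least 1.5 times higher in shSKP2 (5.83%) and at 13 of the 49 with a fold at least 1.5 times lower (26.5%), a difference of -20.7 points (Newcombe 95% interval -34.8 to -8.61). Outside promoters the shares were 6.06% of 66 and 25.6% of 43. At the other sites bound in both arms they were 11.3% of 151 and 13.3% of 75, and the interval of that difference, -12.4 to 6.38 points, included 0.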
